A study of Mus musculus with 4 samples.

Results

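Transcripts of 10 genes of the Notch pathway were followed in the skin of mouse embryos at E16.5 (E, embryonic day), with and without overexpression of the zinc finger transcription factor Ovol2 in the epidermis. They are the receptors Notch1, Notch2 and Notch3, the ligands Jag1, Jag2 and Dll1, the modulators Mfng and Dtx1, and the target genes Hes1 and Hey1. They were chosen by name, as the probe sets whose only annotated symbol was that of a member, and make up 10 of 19938 genes on the array. Each was read by 1 probe set, and all 10 lay above the filter on dim genes. Control skin came from embryos that were wild type or carried TRE-Ovol2-Flag alone, a transgene with a tetracycline-responsive promoter, and its strain label is CB6F1. Ovol2 BT skin came from embryos that carried TRE-Ovol2-Flag and K5-tTA, a transactivator under the keratin 5 promoter of basal keratinocytes, and its strain label is FVB/N. Strain and transgenes therefore cannot be told apart, although the labels also speak of littermates, and no group carried the transactivator alone. There were 2 arrays per group, each with RNA of 2 mice, labelled female.

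Notch receptors are membrane proteins that are activated by ligands of the Jagged and Delta families on a neighbouring cell. Ligand binding lets a metalloprotease and then the gamma-secretase complex cut the receptor, and the freed intracellular part enters the nucleus, where it joins Rbpj and Mastermind proteins at genes such as Hes1 and Hey1. In the epidermis Notch signalling drives basal cells into the spinous layer, and it also acts in hair follicles and blood vessels. Ovol2 has been reported to repress Notch1 in cultured human keratinocytes.

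No difference between Ovol2 BT and control skin passed the test for any of the 10 members. In a limma fit over all 14953 genes tested, 0 of 10 members had an adjusted p under 0.05, and 0 had an unadjusted p under 0.05. Over all genes tested, 4 were called, or 0.0268%, and 632 had an unadjusted p under 0.05. The log2 folds (Ovol2 BT minus control) ran from -0.15 for Hes1 to 0.37 for Dtx1. Their median was 0.09, against 0.03 over all genes tested, and 9 of 10 were positive, against 54.4% of all genes tested. The groups overlapped for 9 members. The exception was Dtx1, higher on both Ovol2 BT arrays, and among all genes tested 20.1% did not overlap with Ovol2 BT higher and 14.1% with Ovol2 BT lower. The median half-width of the members' 95% intervals was 0.53 on the log2 scale, so smaller differences in either direction were within the error of 2 arrays per group.

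**Figure D1:**
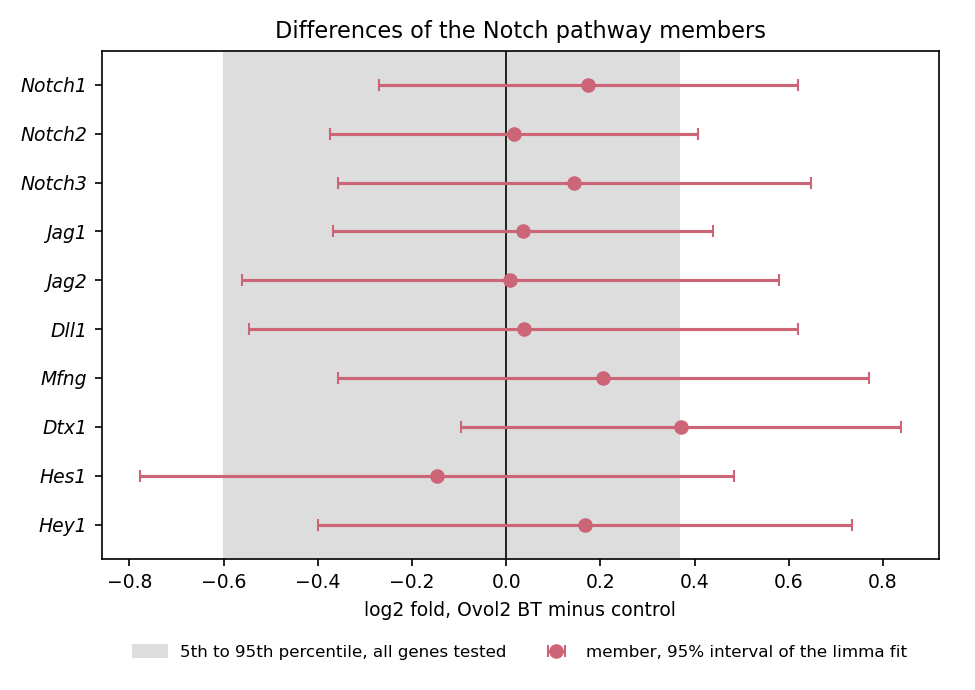
Log2 fold of each member, Ovol2 BT minus control, on the log2(intensity + 16) scale (x axis), with the 95% interval of the limma fit over 2 arrays per group as bars. The grey band spans the 5th to the 95th percentile of the fold over all 14953 genes tested, from -0.60 to 0.37, and all 10 intervals include 0.

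On these arrays Ovol2 was 176 and 297 in control and 7799 and 7949 in Ovol2 BT skin (deposited intensities, replicates 1 and 2), a log2 fold of 5.01 (SE 0.27, limma adjusted p = 0.0253). Median intensities of the arrays were 266 to 304. Keratinocyte markers were bright on every array. The intensities of the 9 listed summed to 87701 and 88316 in control and, lower on both arrays, to 71318 and 71833 in Ovol2 BT skin. The sex label did not match the data on every array: the Y-linked Eif2s3y read 1101 and 1339 on replicate 1 of control and Ovol2 BT and 55.9 and 10.4 on replicate 2, while Xist, of the inactive X chromosome, read 118 and 312 on replicate 1 and 9142 and 1773 on replicate 2. Ovol2 BT replicate 2 stood apart, with r of 0.924 to 0.935 to the other arrays across genes, against 0.976 to 0.983 among those. It had 893 genes over 2-fold lower than the mean of the others, against 30 to 43 on each of the other 3 arrays. For the members, the value without it is given below where that turns the direction of the fold. In bulk skin, fewer cells of a type and less RNA per cell cannot be told apart.

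**Figure D2:**
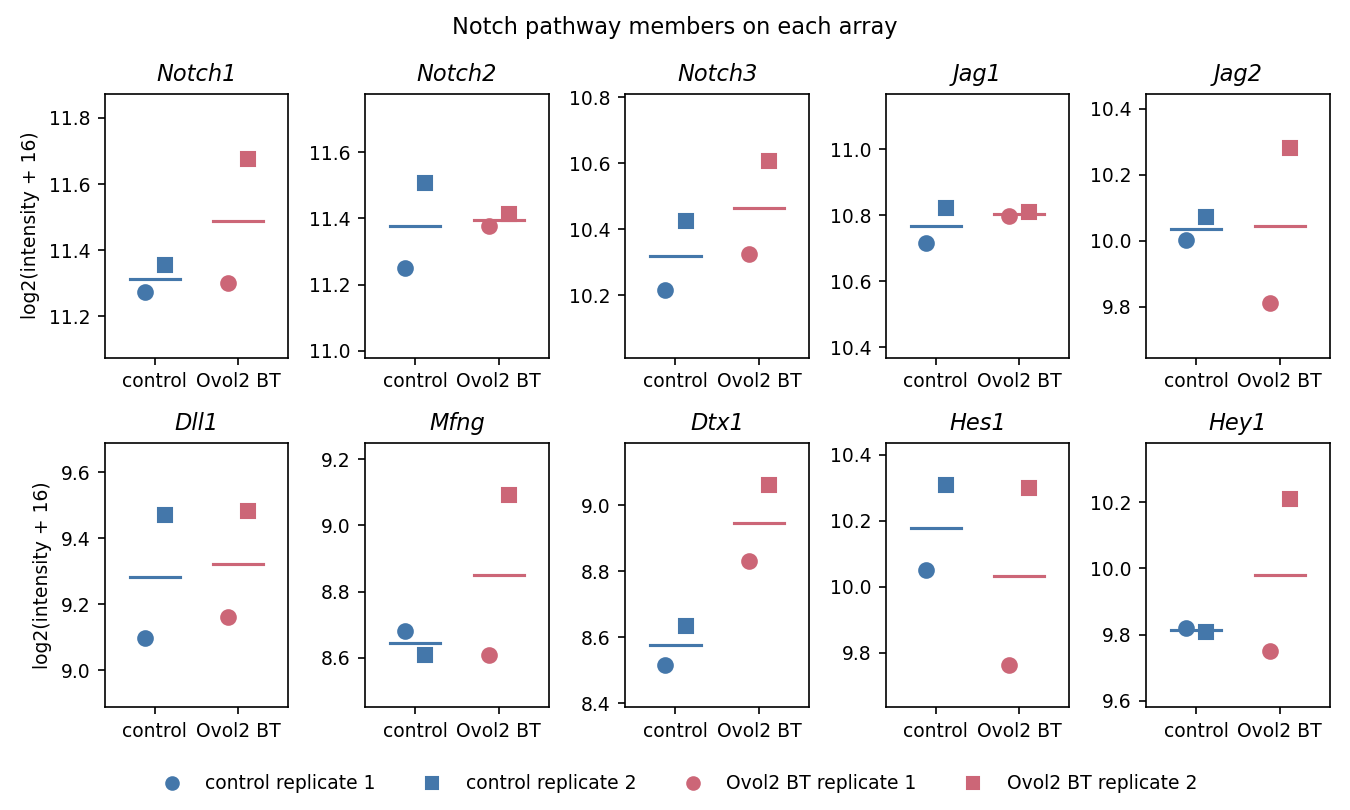
Level of each member as log2(intensity + 16) (y axis) on the control arrays (blue) and Ovol2 BT arrays (red), with circles for replicate 1, squares for replicate 2 and lines for group means. Every panel spans the same range of log2 units; Ovol2 BT replicate 2 lay above Ovol2 BT replicate 1 in all 10 panels, and the groups did not overlap for Dtx1.

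The log2 folds of the receptors lay between 0.017 and 0.17. Notch1, the main receptor of epidermal keratinocytes, had intensities of 2457 and 2603 in control and 2505 and 3255 in Ovol2 BT skin. Ovol2 BT replicate 2 was the highest, and Ovol2 BT replicate 1 lay between the controls. The log2 fold of Notch1 was 0.17 (SE 0.18, 95% interval -0.27 to 0.62, limma adjusted p = 0.906), a ratio of 1.13 with an interval of 0.829 to 1.54. Without Ovol2 BT replicate 2 the fold was -0.013.

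Notch2, another receptor of keratinocytes, read 2418 and 2895 in control and 2643 and 2710 in Ovol2 BT skin. Both Ovol2 BT values lay between the controls, and the fold was 0.017 (SE 0.16, interval -0.37 to 0.41, limma adjusted p = 0.987). Notch3, which is also a receptor of pericytes and smooth muscle, read 1173 and 1359 in control and 1266 and 1542 in Ovol2 BT skin. Its groups overlapped, with a fold of 0.15 (SE 0.20, interval -0.36 to 0.65, limma adjusted p = 0.922). Without Ovol2 BT replicate 2 the folds were -0.0013 for Notch2 and 0.0043 for Notch3.

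The RefSeq promoter windows of the members (250 bases before to 50 after the start, build GRCm38.p6) were searched on both strands for 3 motifs. These were CCGTTA, the core of the Ovol motif, TGGGAA, the core Rbpj motif, and the longer TGTGGGAA, the extended Rbpj motif, which contains TGGGAA. There were 8 windows for 7 of the 10 members, with 2 windows for Dll1; Mfng, Hes1 and Hey1 are named only. None of the 8 windows held any of the 3 motifs, and sequence outside them was not searched. Among all 32851 windows of the table, 2.76% held CCGTTA, 25.6% held TGGGAA and 1.86% held TGTGGGAA. With CCGTTA and TGTGGGAA this rare, their absence from 8 windows says little about these genes. The 250 bases before the start are printed for Notch1, as the receptor with a reported link to Ovol2 (chr2:26503823-26504072, minus strand), and for Dtx1, as the member whose groups did not overlap (chr5:120711670-120711919, minus strand). They read 5′ to 3′ on the gene's strand, and capitals would mark a motif.
Notch1: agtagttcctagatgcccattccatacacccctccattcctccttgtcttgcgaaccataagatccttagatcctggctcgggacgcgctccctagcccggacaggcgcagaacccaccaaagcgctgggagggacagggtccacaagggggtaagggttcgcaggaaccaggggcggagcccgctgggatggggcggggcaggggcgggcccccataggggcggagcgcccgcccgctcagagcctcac
Dtx1: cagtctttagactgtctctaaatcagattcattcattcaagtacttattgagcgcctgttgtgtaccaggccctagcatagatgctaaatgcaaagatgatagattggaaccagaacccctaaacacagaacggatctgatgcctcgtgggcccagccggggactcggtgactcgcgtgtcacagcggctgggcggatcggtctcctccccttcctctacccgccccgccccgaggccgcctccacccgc

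The ligands of the list had folds close to 0. Jag1, a Jagged ligand of skin and vessels, read 1665 and 1793 in control and 1764 and 1778 in Ovol2 BT skin. Both Ovol2 BT arrays lay between the controls, and the fold was 0.035 (SE 0.16, interval -0.37 to 0.44, limma adjusted p = 0.971). Without control replicate 1 it was -0.018.

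Jag2, a ligand made by basal keratinocytes, read 1010 and 1060 in control and 883 and 1227 in Ovol2 BT skin. Its Ovol2 BT arrays were the lowest and the highest of the 4, so the fold of 0.0087 (SE 0.23, interval -0.56 to 0.58, limma adjusted p = 0.994) was the mean of opposite differences. It was -0.225 without Ovol2 BT replicate 2 and 0.24 without Ovol2 BT replicate 1.

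Dll1, a ligand of the Delta family, read 532 and 693 in control and 556 and 699 in Ovol2 BT skin. Replicate 2 was higher than replicate 1 in each group by more than the groups differed. The fold was 0.037 (SE 0.23, interval -0.54 to 0.62, limma adjusted p = 0.980), and -0.12 without Ovol2 BT replicate 2.

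Among the modulators, Dtx1 had the largest fold of the 10 members. Dtx1 encodes Deltex, a ubiquitin ligase that binds the intracellular part of Notch, and it is itself a known Notch target. It read 350 and 382 in control and 439 and 519 in Ovol2 BT skin. Both Ovol2 BT values were above both control values. The log2 fold was 0.37 (SE 0.19, interval -0.10 to 0.84, limma adjusted p = 0.906), a ratio of 1.29 with an interval of 0.935 to 1.79. It was 0.25 without Ovol2 BT replicate 2 and 0.49 without Ovol2 BT replicate 1, and among all genes tested it was at the 95.1st percentile of the fold.

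Mfng encodes Manic fringe, a glycosyltransferase that adds sugars to Notch and shifts which ligands it answers to. It read 394 and 374 in control and 374 and 530 in Ovol2 BT skin, so that 1 array, Ovol2 BT replicate 2, was high and the other 3 were alike. The fold was 0.21 (SE 0.22, interval -0.36 to 0.77, limma adjusted p = 0.910). Without Ovol2 BT replicate 2 it was -0.037.

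The target genes Hes1 and Hey1 encode basic helix-loop-helix repressors that Notch switches on, and their folds had opposite signs. Hes1 read 1044 and 1252 in control and 854 and 1244 in Ovol2 BT skin. Ovol2 BT replicate 1 was the lowest array, and Ovol2 BT replicate 2 lay between the controls. The fold was -0.15 (SE 0.25, interval -0.78 to 0.48, limma adjusted p = 0.936). It was -0.41 without Ovol2 BT replicate 2 and 0.12 without Ovol2 BT replicate 1, so its sign rested on that array.

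Hey1 read 888 and 879 in control and 846 and 1168 in Ovol2 BT skin. Ovol2 BT replicate 1 was the lowest and replicate 2 the highest array, as for Jag2. The fold was 0.17 (SE 0.23, interval -0.40 to 0.73, limma adjusted p = 0.919), and -0.06 without Ovol2 BT replicate 2.

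The clearest pattern among the members was between arrays of the same genotype. Replicate 2 of Ovol2 BT was above replicate 1 for 10 of 10 members, with a median gap of 0.35 on the log2 scale, against 56.3% of all genes tested and a median of 0.06. The gap was 0.53 for Hes1, 0.49 for Mfng, 0.47 for Jag2 and 0.46 for Hey1, and 0.011 for Jag1. Ovol2 BT replicate 2 was the highest of the 4 arrays for 7 members, against 44.1% of all genes tested. Control replicate 2 was also above control replicate 1 for 8 of 10 members, by a median of 0.11, against 49.3% of all genes tested. For 8 members the gap between the Ovol2 BT arrays was larger than the difference between genotypes, as for 71.9% of all genes tested. For 6 members the gap between the control arrays was larger than that difference, as for 6670 of the 14953 genes tested. Against the control mean, 3 of 10 members were higher on Ovol2 BT replicate 1 (median -0.03) and 10 of 10 on replicate 2 (median 0.26), against 49.1% and 58.8% of all genes tested. The Y-linked and Xist signals given above differ between replicates 1 and 2 in the same way in both groups, and their part in this pattern was not tested.

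**Figure D3:**
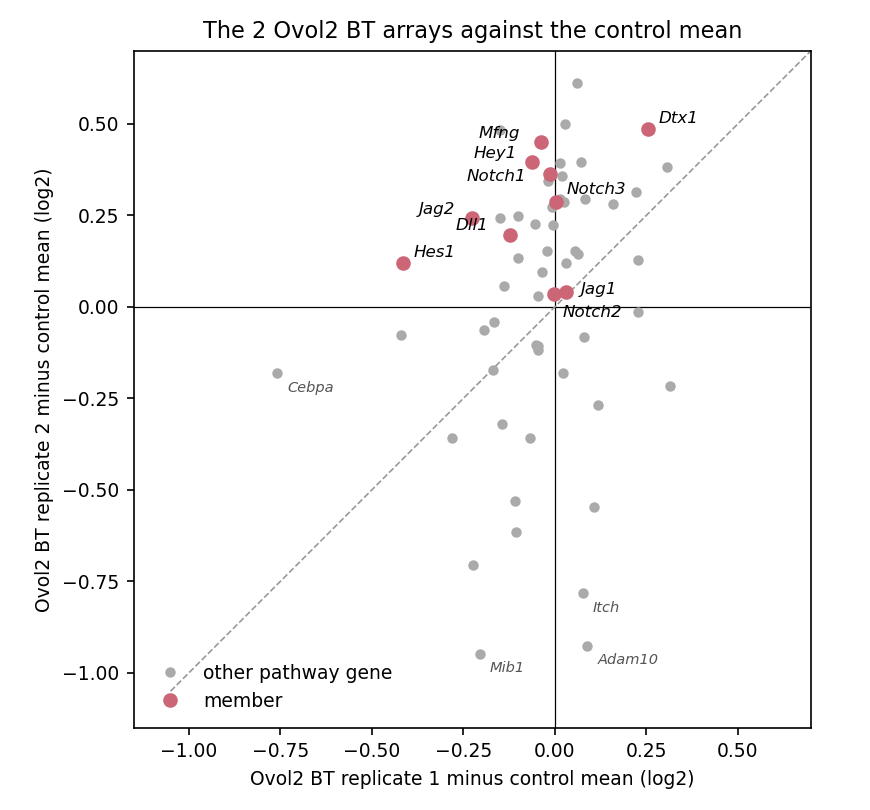
Log2 level on Ovol2 BT replicate 1 (x axis) and replicate 2 (y axis), each minus the control mean, for the 10 members (red) and the 50 other pathway genes tested (grey); the dashed line marks equal values. All members lie above the dashed line and at or above 0 on the y axis, while Adam10, Itch and Mib1 lie far below 0 on replicate 2.

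The length of genes moved with this gap. For 14944 genes tested, a genomic span was found in RefSeq. Across them, Ovol2 BT replicate 2 minus replicate 1 fell with span (Spearman's rho -0.226 across genes, which share the same 2 arrays). Its median, from the shortest to the longest of 5 equal classes of span, was 0.127, 0.166, 0.118, -0.0227 and -0.0915. In the longest genes replicate 2 was thus the lower array. The longest class held 1 member, Notch2. Between the control arrays the same rho was -0.0187. The part of span in the members' values was not tested.

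Other genes of the pathway, 56 in 9 lists by role, gave no calls either. Of these, 52 were on the array with a probe set of their own, and 50 were tested. In limma, 0 of the 50 were called in either direction, and 0 had an unadjusted p under 0.05. Over all 14953 genes tested, 4 were called, or 0.0268%, and 632 had an unadjusted p under 0.05. The median fold of the 50 was 0.04, with 27 positive and 23 negative. Groups did not overlap for 18.0% with Ovol2 BT higher and 20.0% with Ovol2 BT lower, beside the 20.1% and 14.1% over all genes tested. Replicate 2 of Ovol2 BT was above replicate 1 for 30 of the 50.

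Notch4, the receptor of endothelium, had a fold of 0.13, and Dll4, the endothelial Delta ligand, 0.11; without Ovol2 BT replicate 2 they were -0.0085 and -0.0057. Dll3 was too dim to be tested. Of the 4 genes of receptor glycosylation, 2 had positive folds, with the O-fucosyltransferase Pofut1 at 0.20 and the O-glucosyltransferase Poglut1 at -0.23 (0.013 and -0.14 without Ovol2 BT replicate 2). The ubiquitin ligase Mib1, which drives the uptake of bound ligand, had the most negative fold of the lists, -0.58 (SE 0.29, limma adjusted p = 0.906), from 1561 and 1340 in control to 1252 and 742 in Ovol2 BT skin. Both Ovol2 BT values of Mib1 were below the controls, and its fold was -0.21 without Ovol2 BT replicate 2. Neurl1a, another ligase of this step, was at 0.34 (0.06 without Ovol2 BT replicate 2).

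Of the 9 genes of receptor cleavage tested, 4 had positive and 5 negative folds. Adam10, the protease of the first cut, read 1765 and 1517 in control and 1742 and 854 in Ovol2 BT skin, a fold of -0.42 that was 0.09 without Ovol2 BT replicate 2. Aph1b, a gamma-secretase subunit, was at -0.32; it has a close copy, Aph1c, at -0.08, and cross-hybridisation was not examined. Of the 7 nuclear genes tested, the folds ran from -0.10 for Snw1 to 0.15 for the coactivator Maml1 (-0.17 and 0.014 without Ovol2 BT replicate 2). Among 10 further modulators, 5 had positive folds, and the most negative were the ubiquitin ligase genes Fbxw7 (-0.36) and Itch (-0.35), which were -0.10 and 0.08 without Ovol2 BT replicate 2. Numbl was the most positive at 0.34, with no overlap (0.31 without Ovol2 BT replicate 2). Of these modulators 40% did not overlap with Ovol2 BT higher and 10% with Ovol2 BT lower. Over all genes tested the shares were 20.1% and 14.1%.

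Of the 7 other target genes tested, 6 had positive folds, from 0.03 for Hes5 to 0.27 for the cyclin gene Ccnd1, beside 54.4% positive over all genes tested. Without Ovol2 BT replicate 2, 4 of the 7 were positive, and Hes5 (-0.036), Heyl (-0.15) and Hes7 (-0.046) were negative. Ccnd1 read 4768 and 4301 in control and 5281 and 5631 in Ovol2 BT skin, with no overlap (limma adjusted p = 0.906). Nrarp, an inhibitor that Notch induces, was at 0.18, also with no overlap. Among epidermal genes tied to Notch in the skin literature, 6 of 6 tested had negative folds, and 4 did not overlap, beside 14.1% with Ovol2 BT lower and 54.4% with a positive fold over all genes tested. The lowest were the differentiation factor Cebpa (-0.47) and the envelope protein gene Ivl (-0.46), and none was called. Without Ovol2 BT replicate 2 these were -0.76 and -0.22. The spinous keratins Krt1 and Krt10, at -0.08 each, also belong to this list, and are counted again among the keratinocyte markers below. Trp73 (-0.25) and Trp63 (-0.21) were the others tested. The list was not sorted by whether Notch raises or lowers a gene.

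**Figure D4:**
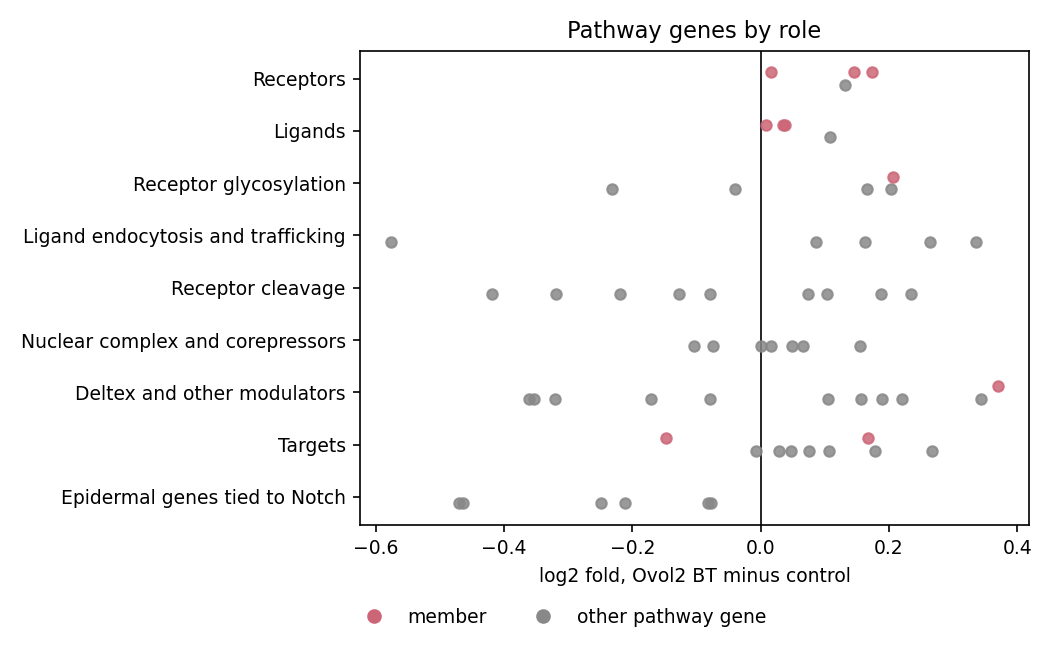
Log2 fold, Ovol2 BT minus control (x axis), of each member (red) and each other pathway gene tested (grey), by role. Folds lie on both sides of 0 in 6 of the 9 lists; all are positive for receptors and ligands, all are negative for the 6 epidermal genes tied to Notch, and no gene was called changed.

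Several members are also found in cell types other than keratinocytes, and the markers of these moved as follows. Endothelial markers, 8 of 8 tested, had a median fold of 0.11 and summed to 14827 and 15720 in control and 15311 and 16957 in Ovol2 BT skin. The sum was highest on Ovol2 BT replicate 2, where Tek and Emcn were lowest and the other endothelial markers highest. Without that array the median fold of the endothelial markers was -0.0071. Pericyte and smooth muscle markers, 7 of 7 tested, had a median of -0.013 and sums of 12510 and 11551 in control and 10904 and 13653 in Ovol2 BT skin, and the median was -0.23 without Ovol2 BT replicate 2. Lymphocyte markers, which bear on Mfng and Dtx1, were dim: 5 of 8 were on the array with a probe set of their own, and 3 were tested. The sums of the 5, tested or not, were 755 and 985 in control and 1017 and 725 in Ovol2 BT skin. Cd79a, a B cell marker too dim to be tested, read 41.8 and 47.0 in control and 53.2 and 93.3 in Ovol2 BT skin. The 3 tested, Ptprc, Cd3e and Il7r, went the other way between the Ovol2 BT arrays. They read 359, 278 and 223 on Ovol2 BT replicate 1 and 159, 239 and 139 on replicate 2. Of the 9 keratinocyte markers 8 had negative folds, with a median of -0.11. The basal keratins Krt15, Krt5 and Krt14 were at -1.41, -0.87 and -0.66. The other keratinocyte markers lay between -0.17 for Perp and 0.07 for Cdh1. Hair follicle markers, 5 of 6 tested and 0 called, had a median of -0.62 and sums of 4847 and 5113 in control and 4036 and 4797 in Ovol2 BT skin. In that list Lhx2 was at -1.03, Edar at -0.80, Shh at -0.62, Wnt10b at 0.10 and Sox9 at 0.56. Periderm markers, 5 of 5 tested, had a median of 1.76 and summed to 4754 and 4270 in control and 18299 and 18753 in Ovol2 BT skin. Of these 1 was called, Krt8, with a fold of 2.34 (limma adjusted p = 0.0253). Myeloid markers, 7 of 7 tested, had a median of 0.40 and sums of 7278 and 6764 in control and 8089 and 10594 in Ovol2 BT skin, also highest on Ovol2 BT replicate 2. The sums of erythroid markers were 3371 and 6753 in control and 3958 and 14770 in Ovol2 BT skin, and those of skeletal muscle 39978 and 23509 in control and 22415 and 44519 in Ovol2 BT skin. Liver-type genes had positive folds for 5 of 5 tested, with a median of 1.31 and sums of 1118 and 1131 in control and 5393 and 2997 in Ovol2 BT skin. The part of any of these cell types in the members' values was not tested.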

How the data were processed

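The deposited values are linear intensity values for each probe set, which the authors summarised with Affymetrix Expression Console 1.1.1 and PLIER 2.0, per the submitters' processing notes. How arrays were normalised against each other, and which genome build was used, is not given in the sources used here. Of 35557 probe sets, 21789 had 1 annotated symbol, 1621 several and 12147 none listed; only the first kind was used, with symbols updated by Entrez number for 21698 of them through RefSeq (GRCm38.p6). The brightest probe set of a gene (mean of all 4 arrays) was taken. Values were log2(intensity + 16). Genes under the 25th percentile of the mean (log2 level 7.32) were left out. limma 3.58.1 (R 4.3.3) fitted Ovol2 BT minus control with an intensity trend (2 residual and 3.45 prior degrees of freedom). The two-sided p-values were adjusted by Benjamini-Hochberg over all 14953 genes tested, and genes were called at an adjusted p under 0.05. Nothing in the labels beyond the word biological says how replicates were drawn, and p-values measure only the spread between these arrays, whose number limits the precision.

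The members and lists were chosen with earlier results of these data known, so no p was adjusted over a list and no list was tested. All members were named, with, per role list, called genes or otherwise the 2 largest folds. Among pathway genes, Hes5, Hes7, Heyl, Krt1, Krt10, Aph1c, Trp63, Trp73 and Numbl were named after their values were seen. So were the markers Krt5, Krt14, Krt15, Perp, Cdh1, Krt8, Tek, Emcn, Cd79a, Ptprc, Cd3e, Il7r, Lhx2, Edar, Shh, Wnt10b and Sox9. The fit was tested on simulated data. The alternatives were 13 fixed beforehand and 1 added after the data were seen.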

Additional observations from a re-analysis of the deposited data

How the results depend on the processing

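No member was called in any of the 14 alternatives (median centring or quantile normalisation, an offset of 1 or 64, a filter at the 50th percentile or none, averaged probe sets, a variance without trend, the replicate block, a crossed pairing and each array left out). At an unadjusted p under 0.05 in limma, 0 members passed in any alternative that kept all 4 arrays. The lowest adjusted p of a member was 0.0932, for Notch1 without Ovol2 BT replicate 1, a fit that assumes the lone Ovol2 BT array to vary as the controls do. The filter at the 50th percentile left 8 members tested. The members' median fold lay between -0.03 with Ovol2 BT replicate 2 left out and 0.26 with replicate 1 left out, and 3 and 10 of the 10 folds were then positive. Without control replicate 1, 5 of 10 were positive, and Notch2 (-0.11), Jag1 (-0.018), Jag2 (-0.025) and Dll1 (-0.15) turned negative. Other pathway genes called ranged from 0 to 5 with an array left out. The 5, without Ovol2 BT replicate 1, were Mib1 (-0.95), Adam10 (-0.93), Itch (-0.78), Ivl (-0.70) and Adam17 (-0.55); 2453 genes were called there. Over all genes the count of 4 ranged from 4 to 2453 with an array left out (107 without Ovol2 BT replicate 2, 7 without control replicate 1). It was 0 for a variance without trend (601 at an unadjusted p under 0.05) and 9 with the replicate block, which changed no call of a member. Quantile normalisation turned the sign of Notch2 to a negative fold. The gaps between replicates of the 2 groups correlated at r = -0.172 across genes, so numbers were also crossed, which gave 5 calls over all genes and 0 among members. Causes were not tested. The number of arrays limits which folds can be seen.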
